A study of Homo sapiens with 18 samples.

Results

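The genes of the actin and actomyosin cytoskeleton described here, 50 of the 60662 genes in the deposited count table, were taken by gene symbol from a list that covers the actins, non-muscle myosin II, the proteins that bind, bundle, cut and nucleate filaments, RHOA, RHOB, RHOC, ROCK1 and ROCK2, the proteins that tie filaments to membrane and adhesions, and the transcription factor SRF. All 50 symbols were found in the table, and 49 passed the filter on low counts. CNN1, the calponin of smooth muscle, had 0 counts in all 18 libraries and was not tested. MYH14, the heavy chain of non-muscle myosin IIC, passed the filter with at most 56 counts in any library.

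Actin filaments are polymers of actin that grow by addition of profilin-bound monomers, are nucleated as branches by the Arp2/3 complex and as straight filaments by formins, and are cut by cofilin. Non-muscle myosin II, a motor built of heavy chains, essential light chains and regulatory light chains, slides filaments past each other, and myosin light chain kinase and the kinases ROCK1 and ROCK2 switch it on by phosphorylating the regulatory chain. In epithelial cells this machinery sets cell tension and pulls on the extracellular matrix through adhesions that contain talin, vinculin and zyxin. Free actin monomers hold the coactivator MRTF outside the nucleus, and MRTF acts with SRF at a short sequence called the CArG box, which lies near many genes of filaments and contraction.

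The cells were MCF10A, a non-malignant human breast epithelial line, grown in all 6 groups on compliant polyacrylamide gels coated with Matrigel, a basement membrane extract, in medium with horse serum, EGF, insulin, cholera toxin and hydrocortisone. They were plated sparsely. The 2D cultures then received fresh medium, and the 3D cultures received the medium with 2% Matrigel, which sets around the cells. The protocol names harvests at 3, 12 and 21 h after plating; the samples are labelled timepoint 1, 2 and 3, and they are matched to these hours here only by their order. Each culture and timepoint had 3 libraries of poly-A RNA, and the labels list the same set of replicate numbers 1, 2 and 3, with a date shared by all groups, in every group.

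The totals in the column headers give 9.31 M to 17.7 M reads for 17 of the 18 libraries, all but 2D timepoint 3 replicate 1. The deposited counts summed to 49.8 M to 93.9 M, 4.73 to 5.73 times those totals in the 17, so the counts are not used as a measure of depth and no counting interval is given. Values below are counts brought to a common library sum with TMM factors, in the usual unit CPM. They were tested for each gene between libraries and never between genes. Sums over marker genes, and the word low for a gene, only describe the CPM. The tests used 17 libraries: the labels of 2D timepoint 3 replicate 1 list only the raw count table, and its values are printed but not tested. The 2D and 3D libraries of the same timepoint and replicate number deviated together from their group means (correlations across genes of 0.416 to 0.786). A second fit with the replicate number as a term, called the replicate block below, is given beside the counts and for the genes whose call it changes. The term is shared by all timepoints. Log2 fold changes and their SE are from the fit without the block, also where an adjusted p with the block stands beside them. That adjusted p belongs to the estimate and SE of the block fit, which are not printed there. Exceptions are the interactions called with the block and values said to be from another fit. Correlations between timepoints are not given, so pairing across timepoints rests on the labels. Nothing in the labels says that the replicates are separate cultures, so p-values measure the spread between these libraries, which may be technical. All 10 epithelial markers were detected, with a summed level of 5227 to 16013 CPM. Of 7 fibroblast markers, summing to 117 to 268 CPM, nearly all was DCN, and COL3A1 was at 0. The 4 endothelial markers summed to 1.42 to 6.97 CPM. The 4 leukocyte markers summed to 5.61 to 20.8 CPM, nearly all CD68, with CD3E at 0. The 5 muscle markers summed to 1.68 to 5.58 CPM, mostly MYH11, with MYH2 at 0.

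Promoter sequence was examined because SRF is among the genes and its own level and that of several listed genes moved with time. RefSeq start sites on GRCh38.p14 were found for 44 of the 50 genes, with 75 windows of 250 bases before to 50 bases after a start. A CArG box, defined as 2 C, 6 letters that are A or T, and 2 G on either strand, lay in the windows of 8 of the 44 genes, or 18.2%, against 1.6% of the 27305 genes with a RefSeq window. The 8 genes were ACTG1, ACTN1, CNN2, MYLK, ROCK2, SMTN, SRF and TPM4. The 27305 genes were not limited to those tested here. The members are of the kinds of gene near which this box is known to lie, so the share only describes the list. Of the 75 member windows, 56 had a start that matched a transcript on the strand of the gene. The promoters of SRF, which has 2 boxes, of CNN2 and TPM4, which fell with time in 2D, of ACTG1, which was called lower with time only with the replicate block, and of SMTN, which was higher in 3D, are shown over the 250 bases before the start, 5′ to 3′ on the strand of the gene, with the CArG box in capitals.
SRF, chr6:43171019-43171268, forward strand: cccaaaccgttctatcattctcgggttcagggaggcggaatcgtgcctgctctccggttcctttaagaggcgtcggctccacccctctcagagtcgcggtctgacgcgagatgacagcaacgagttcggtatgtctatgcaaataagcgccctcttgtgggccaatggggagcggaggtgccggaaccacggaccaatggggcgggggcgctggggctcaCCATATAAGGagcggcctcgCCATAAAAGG
CNN2, chr19:1026358-1026607, forward strand: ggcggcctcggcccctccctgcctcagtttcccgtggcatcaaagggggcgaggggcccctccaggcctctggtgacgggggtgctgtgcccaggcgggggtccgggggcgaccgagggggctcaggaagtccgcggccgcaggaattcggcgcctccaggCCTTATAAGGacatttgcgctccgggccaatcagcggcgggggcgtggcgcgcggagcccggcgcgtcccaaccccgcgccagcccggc
TPM4, chr19:16067288-16067537, forward strand: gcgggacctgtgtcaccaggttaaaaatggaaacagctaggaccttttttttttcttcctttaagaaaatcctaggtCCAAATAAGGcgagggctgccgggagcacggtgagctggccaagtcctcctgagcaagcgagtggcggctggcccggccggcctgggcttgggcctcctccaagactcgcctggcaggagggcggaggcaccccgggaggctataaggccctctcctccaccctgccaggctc
ACTG1, chr17:81512800-81513049, reverse strand: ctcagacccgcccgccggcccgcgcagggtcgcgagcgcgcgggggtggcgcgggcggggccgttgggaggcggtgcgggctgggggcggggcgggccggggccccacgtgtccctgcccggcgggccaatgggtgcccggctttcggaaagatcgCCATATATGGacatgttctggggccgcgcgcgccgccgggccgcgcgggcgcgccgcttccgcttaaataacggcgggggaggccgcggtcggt
SMTN, chr22:31084746-31084995, forward strand: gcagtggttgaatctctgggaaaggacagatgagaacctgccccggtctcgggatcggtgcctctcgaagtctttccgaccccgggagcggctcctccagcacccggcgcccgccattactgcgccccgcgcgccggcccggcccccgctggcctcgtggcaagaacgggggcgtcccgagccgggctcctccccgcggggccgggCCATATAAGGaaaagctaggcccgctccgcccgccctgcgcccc
The boxes of SRF begin 30 and 10 bases before its start, that of SMTN 44 bases before, that of CNN2 89 bases before, that of ACTG1 94 bases before and that of TPM4 173 bases before. A match is a description of the letters and not evidence of a bound site. The SMTN window belongs to a start inside the gene as the deposited table places it, and the TPM4 window to a start upstream of it. TGANTCA, the motif of AP-1, was found in the windows of 5 of the 44 genes, or 11.4%, against 9.37% of all genes. GGAATG, a core of TEAD sites, was found in 12 genes, or 27.3%, against 16.7%. These shares depend on windows per gene: the 44 genes had 75 windows and the 27305 genes 35116. By window, GGAATG lay in 13 of 75 against 14% of all windows, and TGANTCA in 6 of 75 against 7.71%. By the same count a CArG box lay in 8 of 75 against 1.29%. GGAATG can share the closing G letters of a CArG box. Both strands were searched for each.

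Whether embedding in Matrigel changes expression of the cytoskeleton genes was asked at each timepoint. At timepoint 1, 3 h after plating if the order holds, 0 of the 49 genes passed in edgeR's quasi-likelihood test at an adjusted p under 0.05, with or without the replicate block. The share of all genes called was 0%, 0 members had an unadjusted p under 0.05, and DESeq2 and limma-voom called 0. At timepoint 2, 1 gene passed, SMTN, which was higher in 3D. Of all tested genes 1.49% were called there, 0.705% as higher. With the replicate block 16 genes passed, or 32.7% of the members against 15.9% of all tested genes. Of these, 14 were higher in 3D, against 9.00% of all genes, and 2 were lower, against 6.86%. At timepoint 3, 1 gene passed, RHOB, which was lower in 3D; of all genes 1.50% were called, 1.26% as lower. With the block 8 passed, or 16.3% against 9.75% of all genes, 5 of them higher, against 4.45%, and 3 lower, against 5.30%. With the block and the left-out 2D library added, 3 passed at timepoint 3, MYL12B and ARPC5 as higher and RHOB as lower, and 19 passed at timepoint 2, 17 of them higher. The share of all genes called in that fit is not given here.

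The median log2 fold change of 3D against 2D over the 49 genes was -0.01 at timepoint 1, 0.38 at timepoint 2 and 0.20 at timepoint 3, beside 0.00, -0.03 and 0.02 over all tested genes. Without MYH14, whose 3D libraries were at 0, it was 0.39 and 0.20 at timepoints 2 and 3. Values were above 0 for 21, 32 and 36 of the 49 genes. The CPM of the 3D libraries lay wholly above those of the tested 2D libraries for 19 genes and wholly below for 2 at timepoint 2, and above for 20 and below for 8 at timepoint 3. Of all tested genes the same held for 14.8% and 13.0%, or 27.8% in all, at timepoint 2 and for 18.9% and 20.2%, or 39.0% in all, at timepoint 3. At timepoint 3 only 2 2D libraries were tested, and groups of 2 and 3 separate more readily, so these counts are not compared between timepoints. For some genes, such as MYL12B and ARPC5, the left-out 2D library lay inside the 3D range. At timepoint 1, 0 members separated the groups, against 3.26% of all genes, 1.43% above and 1.84% below. With the totals of the file headers as library sizes the median of all genes at timepoint 2 moved to -0.23 and that of the members to 0.19, and the split of calls with the block became 8 higher and 5 lower at timepoint 2 and 2 higher and 6 lower at timepoint 3. The share of all genes called under that scaling is not given here. Of the 16 genes called with the block at timepoint 2, 10 remained under that scaling, without ACTB, MYL6, TPM3, TAGLN2, ACTN1 and FSCN1, and of the 8 at timepoint 3, 5 remained, without TPM3, SMTN and CFL2. In these bulk libraries fewer cells expressing a gene and less RNA of it per cell cannot be told apart.

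**Figure D1:**
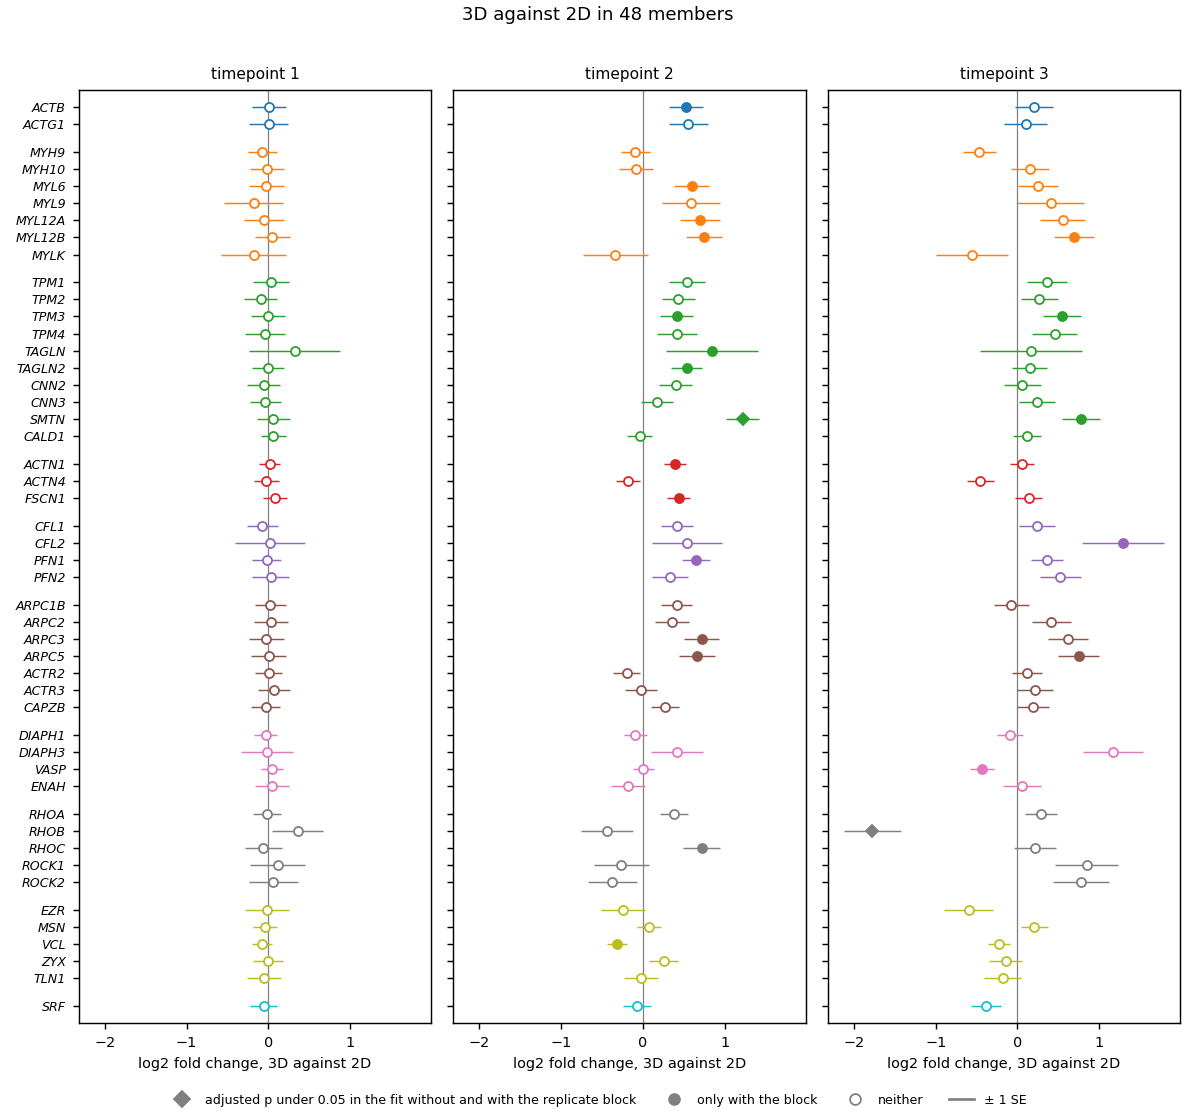
Log2 fold change of 3D against 2D (horizontal axis) for the tested genes other than MYH14, ordered and coloured by role, at timepoints 1, 2 and 3; diamonds passed with and without the replicate block, filled circles only with it and open circles in neither fit, and bars are ± 1 SE from the fit over 17 libraries. Values and bars are from the fit without the block for every symbol. At timepoint 1 the values lie near 0, at timepoint 2 SMTN (1.22) is the gene that passes without the block, and at timepoint 3 RHOB (-1.78) is.

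ACTB (ENSG00000075624.16, chr7:5527156-5530601, reverse strand) and ACTG1 (ENSG00000184009.12, chr17:81510013-81512791, reverse strand), on hg38 as the deposited table gives them, encode beta-actin and gamma-actin, the cytoplasmic actins from which filaments in epithelial cells are built. ACTB stood at 9657, 7215 and 11996 CPM in 2D and 8851, 8362 and 11865 CPM in 3D at timepoint 1, in the order of replicates 1, 2 and 3. At timepoint 2 ACTB was at 5842, 5434 and 5675 CPM in 2D and 9802, 7442 and 7195 CPM in 3D. At timepoint 3 ACTB was at 4646, 4435 and 5771 CPM in 2D and 5263, 5866 and 6504 CPM in 3D. Here and below, the first 2D value of timepoint 3 is from the library left out of the tests. All 3D libraries were above all 2D libraries at timepoint 2, and the groups overlapped at the other timepoints. The log2 fold change at timepoint 2 was 0.53 (SE 0.21, adjusted p = 0.171 without and 0.0477 with the replicate block). ACTG1 was measured at 11691, 8387 and 16566 CPM in 2D and 10731, 9684 and 16286 CPM in 3D at timepoint 1. At timepoint 2 ACTG1 was at 7271, 8543 and 7679.7 CPM in 2D and 12232, 12205 and 10017 CPM in 3D. At timepoint 3 ACTG1 was at 5328, 6194 and 7491 CPM in 2D and 6217, 7926 and 7865 CPM in 3D. Its 3D libraries were also above at timepoint 2, with a log2 fold change of 0.55 (SE 0.24, adjusted p = 0.209 without and 0.0887 with the replicate block), which misses the threshold in both fits. The 2 genes are near-identical in their coding sequence and have many processed copies, and no source used here says how reads that fit several places were counted, so the levels of the separate genes are uncertain.

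Among the myosin chains at timepoint 2, the log2 fold changes of the light chains were 0.59 to 0.75, and those of the heavy chains MYH9 and MYH10 were both -0.09. That sign turned when the block and the offset for length and GC content given below were both added. With the block 3 light chain genes passed at timepoint 2 and 1 at timepoint 3, all higher in 3D. MYL12B (ENSG00000118680.13, chr18:3261909-3278284), a regulatory light chain, stood at 297, 225 and 333 CPM in 2D and 295, 223 and 367 CPM in 3D at timepoint 1. At timepoint 2 MYL12B was at 279, 226 and 262 CPM in 2D and 539, 331 and 417 CPM in 3D. At timepoint 3 MYL12B was at 299, 205 and 246 CPM in 2D and 402, 298 and 392 CPM in 3D. The 3D libraries lay above the tested 2D libraries at both later timepoints, and the left-out 2D library was inside the 3D range. Its log2 fold change was 0.75 (SE 0.22, adjusted p = 0.0858 without and 0.00274 with the replicate block) at timepoint 2 and 0.69 (SE 0.25, adjusted p = 0.158 without and 0.0187 with the replicate block) at timepoint 3. MYL12A (ENSG00000101608.12, chr18:3247530-3256236), the neighbouring gene on chromosome 18 with a closely related coding sequence, was at 482, 325 and 541 CPM in 2D and 422, 306 and 565 CPM in 3D at timepoint 1. At timepoint 2 MYL12A was at 326, 248 and 274 CPM in 2D and 599, 346 and 435 CPM in 3D. At timepoint 3 MYL12A was at 342, 255 and 288 CPM in 2D and 446, 343 and 405 CPM in 3D. It showed the same separation of the groups, with 0.70 (SE 0.25, adjusted p = 0.133 without and 0.0135 with the replicate block) at timepoint 2 and 0.55 (SE 0.28, adjusted p = 0.291 without and 0.139 with the replicate block) at timepoint 3, and reads shared by MYL12A and MYL12B could have been split between them.

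MYL6, the essential light chain, was at 2304, 1622 and 2854 CPM in 2D and 2109.9, 1629 and 2931 CPM in 3D at timepoint 1. At timepoint 2 MYL6 was at 2276, 2325 and 2302 CPM in 2D and 3967, 3193 and 3278 CPM in 3D. At timepoint 3 MYL6 was at 2031, 2221 and 2280.0 CPM in 2D and 2609, 2521 and 2912 CPM in 3D. Its 3D libraries were above at both later timepoints, and the difference passed with the block at timepoint 2, at 0.60 (SE 0.21, adjusted p = 0.141 without and 0.0363 with the replicate block). MYL9, the regulatory light chain best known from smooth muscle, was low, at 5.83, 4.28 and 9.67 CPM in 2D and 4.80, 3.31 and 9.39 CPM in 3D at timepoint 1. At timepoint 2 MYL9 was at 6.85, 7.37 and 9.50 CPM in 2D and 12.0, 8.92 and 14.8 CPM in 3D. At timepoint 3 MYL9 was at 2.34, 2.89 and 4.19 CPM in 2D and 3.91, 4.01 and 6.19 CPM in 3D. Replicate 3 was the highest library of MYL9 in each group, and the groups overlapped; the log2 fold change at timepoint 2 was 0.59 (SE 0.36, adjusted p = 0.368 without and 0.0547 with the replicate block).

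MYH9, the heavy chain of myosin IIA, stood at 287, 380.1 and 399 CPM in 2D and 289, 374 and 351 CPM in 3D at timepoint 1. At timepoint 2 MYH9 was at 206, 246 and 238 CPM in 2D and 188, 263 and 196 CPM in 3D. At timepoint 3 MYH9 was at 199, 279 and 257 CPM in 2D and 162, 227 and 193 CPM in 3D. Its groups overlapped at the first 2 timepoints, and at timepoint 3 the 3D libraries were below the 2 tested 2D libraries, with a log2 fold change of -0.47 (SE 0.20, adjusted p = 0.219). The left-out 2D library of MYH9, at 199 CPM, was inside the 3D range. With the block and all 18 libraries the value was -0.34 (adjusted p = 0.0649). MYH10, the heavy chain of myosin IIB, was at 60.1, 90.4 and 51.2 CPM in 2D and 66.2, 84.3 and 48.8 CPM in 3D at timepoint 1. At timepoint 2 MYH10 was at 59.8, 67.4 and 65.5 CPM in 2D and 56.5, 62.2 and 62.6 CPM in 3D. At timepoint 3 MYH10 was at 76.6, 62.0 and 56.9 CPM in 2D and 63.2, 72.1 and 63.4 CPM in 3D. The groups of MYH10 overlapped at timepoint 2, and its log2 fold changes were -0.09 (SE 0.20, adjusted p = 0.848) and 0.16 (SE 0.23, adjusted p = 0.735) at the later timepoints. The left-out 2D library of MYH10 at timepoint 3, at 76.6 CPM, was above the 3D libraries. MYH14 was listed at 0, 0 and 0.135 CPM in 2D and 0, 0 and 0.132 CPM in 3D at timepoint 1. At timepoint 2 MYH14 was at 0.174, 0.125 and 0.775 CPM in 2D and 0, 0 and 0 CPM in 3D. At timepoint 3 MYH14 was at 0, 0.269 and 0.507 CPM in 2D and 0, 0 and 0 CPM in 3D. MYH14 was at 0 in every 3D library of timepoints 2 and 3, so no fold is given; it was called lower in 3D only with the block, at an adjusted p of 0.0142 and 0.0218. MYLK, the kinase of the regulatory light chains, was at 3.38, 4.98 and 1.85 CPM in 2D and 2.51, 4.84 and 1.65 CPM in 3D at timepoint 1. At timepoint 2 MYLK was at 3.68, 3.09 and 3.11 CPM in 2D and 1.63, 3.42 and 2.83 CPM in 3D. At timepoint 3 MYLK was at 3.65, 4 and 2.27 CPM in 2D and 1.75, 2.16 and 2.47 CPM in 3D. The groups of MYLK overlapped, and its log2 fold change was -0.34 (SE 0.40, adjusted p = 0.671) at timepoint 2.

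**Figure D2:**
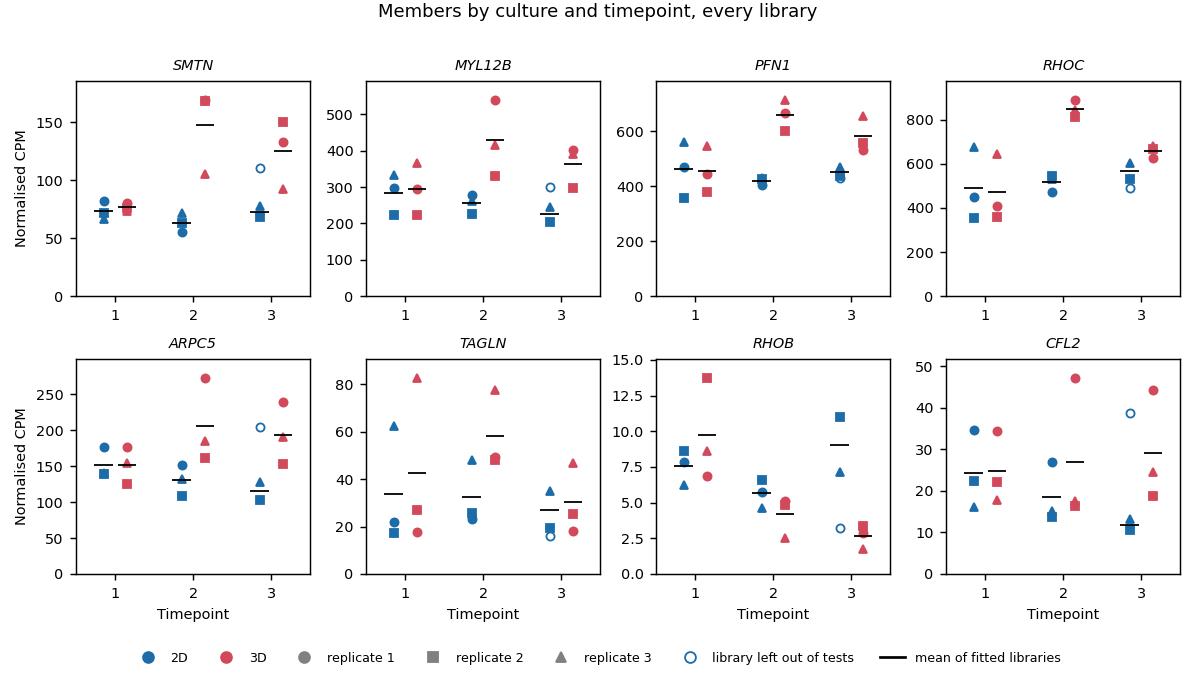
CPM of 8 genes (vertical axis, from 0, with its own scale in each panel) at timepoints 1, 2 and 3 (horizontal axis) in 2D (blue) and 3D (red); each point is a library, with a shape for each replicate number, the black mark is the mean of the tested libraries and the open point is the library left out of the tests. The 3D libraries of SMTN, MYL12B and PFN1 stand above the 2D libraries at timepoint 2, and those of RHOB stand below the tested 2D libraries at timepoint 3.

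SMTN (ENSG00000183963.18, chr22:31081319-31104624, forward strand) encodes smoothelin, a protein that binds filaments in contractile cells. SMTN was at 81.9, 71.4 and 66.7 CPM in 2D and 80.5, 76.0 and 73.1 CPM in 3D at timepoint 1. At timepoint 2 SMTN stood at 55.1, 63.0 and 72.0 CPM in 2D and 169, 169 and 105 CPM in 3D, or 63.4 ± 8.44 CPM in 2D and 148 ± 36.7 CPM in 3D (mean ± SD, n = 3 each). All 3D libraries were above all 2D libraries, and 3D replicate 3 was the lowest of the 3D group. The log2 fold change was 1.22 (SE 0.20, adjusted p = 0.0163) in edgeR's quasi-likelihood test. It lost the call without 2D replicate 1 (1.13, adjusted p = 0.0765), without 2D replicate 2 (1.21, adjusted p = 0.0747) or without 3D replicate 1 (1.11, adjusted p = 0.0675), and kept it with the block at an adjusted p of 0.00141. At timepoint 3 SMTN was at 110.4, 67.9 and 77.9 CPM in 2D and 133, 150.0 and 92.3 CPM in 3D. The left-out 2D library, at 110.4 CPM, lay inside the range of the 3D libraries. The difference there was 0.78 (SE 0.23, adjusted p = 0.104 without and 0.0479 with the replicate block).

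The transgelins bind and stabilise filaments. TAGLN stood at 22.1, 17.3 and 62.5 CPM in 2D and 17.8, 27.2 and 82.6 CPM in 3D at timepoint 1. At timepoint 2 TAGLN was at 23.3, 25.6 and 48.3 CPM in 2D and 49.2, 48.2 and 77.4 CPM in 3D. At timepoint 3 TAGLN was at 16.2, 19.2 and 34.8 CPM in 2D and 18.3, 25.5 and 46.9 CPM in 3D. Replicate 3 was the highest TAGLN library in every group, so the groups overlapped, while each 3D library of timepoint 2 was above the 2D library of the same number; the log2 fold change was 0.85 (SE 0.56, adjusted p = 0.410 without and 0.0219 with the replicate block). TAGLN2 was at 519, 400.3 and 654 CPM in 2D and 471, 425 and 671 CPM in 3D at timepoint 1. At timepoint 2 TAGLN2 was at 454, 506 and 477 CPM in 2D and 792, 685 and 607 CPM in 3D. At timepoint 3 TAGLN2 was at 513, 565 and 578 CPM in 2D and 597, 649.7 and 651 CPM in 3D. Its 3D libraries were above the tested 2D libraries at timepoints 2 and 3, and its log2 fold change at timepoint 2 was 0.54 (SE 0.19, adjusted p = 0.141 without and 0.049999 with the replicate block).

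Tropomyosins lie along filaments and set which proteins can bind them. TPM3 was at 942, 725 and 903 CPM in 2D and 902, 742 and 915 CPM in 3D at timepoint 1. At timepoint 2 TPM3 was at 693, 574 and 715 CPM in 2D and 1075, 675 and 887 CPM in 3D. At timepoint 3 TPM3 was at 871, 526 and 762 CPM in 2D and 972, 744 and 1108 CPM in 3D. The groups of TPM3 overlapped at each timepoint and every same-numbered pair of the later timepoints was higher in 3D, with 0.41 (SE 0.21, adjusted p = 0.279 without and 0.0292 with the replicate block) at timepoint 2 and 0.55 (SE 0.23, adjusted p = 0.221 without and 0.0301 with the replicate block) at timepoint 3. TPM1 was at 312, 284 and 378 CPM in 2D and 313, 280.1 and 403 CPM in 3D at timepoint 1. At timepoint 2 TPM1 was at 293, 259 and 251 CPM in 2D and 527, 383 and 254 CPM in 3D. At timepoint 3 TPM1 was at 226, 200.1 and 196 CPM in 2D and 286, 251 and 229 CPM in 3D. The groups of TPM1 overlapped at timepoint 2, and its log2 fold change at timepoint 2 was 0.54 (SE 0.22, adjusted p = 0.186 without and 0.0976 with the replicate block). TPM2, TPM4, CNN2, CNN3 and CALD1, the last 3 being calponins and caldesmon that bind along filaments, did not pass between cultures in either fit; their log2 fold changes at timepoint 2 were 0.43, 0.42, 0.40, 0.17 and -0.04.

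The crosslinkers tie filaments into networks and bundles. ACTN1, an alpha-actinin of stress fibres and adhesions, was at 647, 578 and 669 CPM in 2D and 646, 647 and 620.1 CPM in 3D at timepoint 1. At timepoint 2 ACTN1 was at 505, 542 and 558 CPM in 2D and 764, 717 and 628 CPM in 3D. At timepoint 3 ACTN1 was at 531, 544 and 609 CPM in 2D and 542, 627 and 622 CPM in 3D. The 3D libraries were above the 2D libraries at timepoint 2, at 0.39 (SE 0.13, adjusted p = 0.115 without and 0.0315 with the replicate block), and the groups overlapped at timepoint 3, at 0.05 or -0.04 with the header totals as library sizes. FSCN1, fascin, which bundles the filaments of protrusions, was at 185, 155 and 205 CPM in 2D and 181, 193 and 203 CPM in 3D at timepoint 1. At timepoint 2 FSCN1 was at 169, 194 and 196 CPM in 2D and 259, 253 and 244 CPM in 3D. At timepoint 3 FSCN1 was at 219, 205 and 239.7 CPM in 2D and 207, 259.8 and 268 CPM in 3D. FSCN1 also separated the groups at timepoint 2, at 0.44 (SE 0.15, adjusted p = 0.115 without and 0.0232 with the replicate block). ACTN4, the other non-muscle alpha-actinin, was at 554, 528 and 683 CPM in 2D and 553, 565 and 619 CPM in 3D at timepoint 1. At timepoint 2 ACTN4 was at 429, 468 and 443 CPM in 2D and 401, 441 and 334 CPM in 3D. At timepoint 3 ACTN4 was at 341, 475 and 469 CPM in 2D and 326, 390.4 and 317 CPM in 3D. Its groups overlapped at timepoint 2, at -0.19 (SE 0.15, adjusted p = 0.501). At timepoint 3 the 3D libraries of ACTN4 were below the tested 2D libraries, at -0.45 (SE 0.16, adjusted p = 0.160), which does not pass. The left-out 2D library of ACTN4, at 341 CPM, was inside the 3D range. With the block and all 18 libraries the value was -0.31 (adjusted p = 0.199).

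Profilin 1 loads actin monomers for addition to filament ends. PFN1 (ENSG00000108518.7, chr17:4945652-4949014, reverse strand) was at 471, 356 and 563 CPM in 2D and 444, 380.1 and 546 CPM in 3D at timepoint 1. At timepoint 2 PFN1 was at 406, 427 and 430.2 CPM in 2D and 667, 602 and 713 CPM in 3D. At timepoint 3 PFN1 was at 430.5, 436 and 469.7 CPM in 2D and 532, 556 and 657 CPM in 3D. Its 3D libraries were above the tested 2D libraries at both later timepoints. The log2 fold change was 0.65 (SE 0.18, adjusted p = 0.0679 without and 0.00529 with the replicate block) at timepoint 2 and 0.36 (SE 0.20, adjusted p = 0.329 without and 0.121 with the replicate block) at timepoint 3, so that the call at timepoint 2 rests on the block. CFL2, the cofilin best known from muscle, was at 34.7, 22.3 and 16.1 CPM in 2D and 34.3, 22.0 and 17.8 CPM in 3D at timepoint 1. At timepoint 2 CFL2 was at 27.0, 13.8 and 15.1 CPM in 2D and 47.1, 16.5 and 17.6 CPM in 3D. At timepoint 3 CFL2 was at 38.8, 10.5 and 13.3 CPM in 2D and 44.2, 18.7 and 24.4 CPM in 3D. Replicate 1 was the highest CFL2 library in each of the 6 groups. The left-out 2D library of CFL2 at timepoint 3, at 38.8 CPM, was inside the range of the 3D libraries, and the log2 fold change against the other 2 was 1.29 (SE 0.50, adjusted p = 0.183 without and 0.0188 with the replicate block). That 1.29 is from the fit without the block, in which the 3D group keeps its high replicate 1 and the 2D group does not. With the block and all 18 libraries the value was 0.61 (adjusted p = 0.0919). With the block and the offset for length and GC content described below it was 0.65 (adjusted p = 0.0294). CFL1 and PFN2 did not pass at either timepoint, with 0.42 and 0.33 at timepoint 2.

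The Arp2/3 complex is made of the actin-related proteins ACTR2 and ACTR3 and smaller subunits, and CAPZB caps the filament ends it makes. ARPC5 (ENSG00000162704.16, chr1:183626458-183635757) was at 176, 139 and 139.9 CPM in 2D and 177, 125 and 154 CPM in 3D at timepoint 1. At timepoint 2 ARPC5 was at 151, 109 and 132 CPM in 2D and 272, 162 and 185 CPM in 3D. At timepoint 3 ARPC5 was at 204, 103 and 127 CPM in 2D and 239, 153 and 189.8 CPM in 3D. Replicate 1 was the highest ARPC5 library in all 6 groups, and the tested 2D libraries lay below the 3D libraries at both later timepoints, with the left-out 2D library inside the 3D range. The log2 fold change of ARPC5 was 0.66 (SE 0.22, adjusted p = 0.115 without and 0.00168 with the replicate block) at timepoint 2 and 0.75 (SE 0.25, adjusted p = 0.141 without and 0.00740 with the replicate block) at timepoint 3. The 0.75 compares a 3D group that holds the high replicate 1 with a 2D group that does not. With the block and all 18 libraries the value at timepoint 3 was 0.45 (adjusted p = 0.0390). ARPC3 was at 87.8, 70.3 and 111 CPM in 2D and 76.3, 64.9 and 124 CPM in 3D at timepoint 1. At timepoint 2 ARPC3 was at 97.7, 89.1 and 92.1 CPM in 2D and 171, 138 and 149.7 CPM in 3D. At timepoint 3 ARPC3 was at 100.1, 83.2 and 92.6 CPM in 2D and 148, 119.9 and 137 CPM in 3D. ARPC3 separated the groups at both later timepoints, with 0.72 (SE 0.21, adjusted p = 0.0887 without and 0.0121 with the replicate block) at timepoint 2 and 0.62 (SE 0.24, adjusted p = 0.187 without and 0.0653 with the replicate block) at timepoint 3. The other subunits among the members did not pass in either fit, nor did CAPZB. At timepoint 2 the log2 fold change was 0.41 for ARPC1B, 0.36 for ARPC2, -0.20 for ACTR2, -0.02 for ACTR3 and 0.27 for CAPZB. The subunits ARPC1A, ARPC4 and ARPC5L, which are not members, were called higher at timepoint 2 only with the block. Their log2 fold changes were 0.87, 0.46 and 0.41 (adjusted p = 0.00176, 0.0332 and 0.0299 with the replicate block). ARPC1A was also called with the block at timepoint 3, at 0.63 (adjusted p = 0.0191).

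Formins and Ena/VASP proteins lengthen straight filaments. VASP was at 109.6, 107 and 127 CPM in 2D and 104, 120.3 and 131 CPM in 3D at timepoint 1. At timepoint 2 VASP was at 83.8, 98.3 and 97.5 CPM in 2D and 94.7, 97.2 and 88.9 CPM in 3D. At timepoint 3 VASP was at 74.1, 107 and 112 CPM in 2D and 75.4, 86.4 and 81.7 CPM in 3D. The tested 2D libraries of VASP were above the 3D libraries at timepoint 3, at -0.43 (SE 0.15, adjusted p = 0.147 without and 0.0475 with the replicate block), and the left-out 2D library, at 74.1 CPM, was below them. DIAPH3, a formin, was at 33.7, 35.6 and 17.3 CPM in 2D and 32.6, 34.5 and 18.9 CPM in 3D at timepoint 1. At timepoint 2 DIAPH3 was at 15.8, 9.24 and 17.2 CPM in 2D and 20.1, 14.3 and 21.9 CPM in 3D. At timepoint 3 DIAPH3 was at 33.3, 12.0 and 17.7 CPM in 2D and 37.0, 23.4 and 39.6 CPM in 3D. Its log2 fold change at timepoint 3 was 1.17 (SE 0.37, adjusted p = 0.128 without and 0.0788 with the replicate block), which does not pass, and here too the left-out 2D library, at 33.3 CPM, was inside the 3D range. DIAPH1 and ENAH had -0.09 and -0.18 at timepoint 2.

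RHOB (ENSG00000143878.9, chr2:20447074-20449445, forward strand), a small GTPase found on endosomes and induced by many stimuli, was low, with 7.83, 8.62 and 6.26 CPM in 2D and 6.84, 13.7 and 8.59 CPM in 3D at timepoint 1. At timepoint 2 RHOB was at 5.74, 6.60 and 4.63 CPM in 2D and 5.15, 4.86 and 2.51 CPM in 3D, and the groups overlapped. At timepoint 3 RHOB stood at 3.19, 11.0 and 7.11 CPM in 2D and 2.84, 3.33 and 1.77 CPM in 3D. The 2 tested 2D libraries were above all 3D libraries, and the left-out one lay inside the 3D range. The log2 fold change was -1.78 (SE 0.35, adjusted p = 0.0198) in edgeR's quasi-likelihood test, and the adjusted p was 5.52e-04 with the block. With all 18 libraries the difference was -1.42 with an adjusted p of 0.328, or -1.40 with an adjusted p of 0.026 with the block. The call was also lost without 2D replicate 2 (-1.44, adjusted p = 0.315), which leaves 1 2D library assumed to vary like the other groups, without 3D replicate 1 (-1.83, adjusted p = 0.0755) and without 3D replicate 3 (-1.55, adjusted p = 0.0806).

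RHOC (ENSG00000155366.16, chr1:112701133-112707127), a small GTPase that acts on formins and ROCK1, was at 448, 353 and 676 CPM in 2D and 409, 361 and 645 CPM in 3D at timepoint 1. At timepoint 2 RHOC was at 471, 546 and 529.7 CPM in 2D and 888, 814 and 846 CPM in 3D. At timepoint 3 RHOC was at 490.1, 531 and 605 CPM in 2D and 627, 667 and 683 CPM in 3D. The 3D libraries of RHOC were above the tested 2D libraries at both later timepoints, and the difference passed with the block at timepoint 2, at 0.72 (SE 0.23, adjusted p = 0.101 without and 0.0177 with the replicate block). RHOA, a small GTPase that activates ROCK1 and ROCK2, did not pass, with 0.38 (SE 0.17, adjusted p = 0.224 without and 0.0559 with the replicate block) at timepoint 2 and 0.29 at timepoint 3. ROCK1 was at 12.8, 20.4 and 6.47 CPM in 2D and 14.8, 19.2 and 8.89 CPM in 3D at timepoint 1. At timepoint 2 ROCK1 was at 15.0, 9.26 and 15.1 CPM in 2D and 11.2, 11.3 and 10.2 CPM in 3D. At timepoint 3 ROCK1 was at 18.5, 7.58 and 6.78 CPM in 2D and 15.7, 11.1 and 11.9 CPM in 3D. Its log2 fold changes were -0.27 (SE 0.34, adjusted p = 0.694) and 0.84 (SE 0.39, adjusted p = 0.248) at the later timepoints. The groups overlapped at timepoint 2. At timepoint 3 the tested 2D libraries of ROCK1 were below the 3D libraries, and the left-out one, at 18.5 CPM, was above them. ROCK2 had -0.37 and 0.78 at the later timepoints, and neither kinase passed in either fit. With the block and all 18 libraries, ROCK1 and ROCK2 had 0.30 and 0.40 at timepoint 3 (adjusted p = 0.652 and 0.492).

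Vinculin, zyxin and talin join filaments to adhesions, and ezrin and moesin join them to the membrane. VCL (ENSG00000035403.17, chr10:73998114-74120160, forward strand) was at 204, 209 and 209 CPM in 2D and 204, 206 and 179 CPM in 3D at timepoint 1. At timepoint 2 VCL was at 122, 127 and 125 CPM in 2D and 99.6, 109.8 and 90.2 CPM in 3D. At timepoint 3 VCL was at 116, 108 and 115 CPM in 2D and 93.1, 102 and 89.3 CPM in 3D. The 3D libraries of VCL were below the tested 2D libraries at both later timepoints by a small margin, with -0.32 (SE 0.12, adjusted p = 0.161 without and 0.0345 with the replicate block) at timepoint 2 and -0.23 (SE 0.14, adjusted p = 0.362 without and 0.195 with the replicate block) at timepoint 3. With the block and the offset for length and GC content described below, the VCL value at timepoint 2 was -0.02 (adjusted p = 0.942). ZYX was at 325, 238 and 406 CPM in 2D and 311, 280.5 and 373 CPM in 3D at timepoint 1. At timepoint 2 ZYX was at 208, 212 and 203 CPM in 2D and 273, 259 and 209 CPM in 3D. At timepoint 3 ZYX was at 211, 234 and 240.3 CPM in 2D and 205, 243 and 196 CPM in 3D. The groups of ZYX overlapped, with log2 fold changes of 0.25 (SE 0.18, adjusted p = 0.452) and -0.14 (SE 0.20, adjusted p = 0.725) at the later timepoints. TLN1, EZR and MSN did not pass, with -0.02, -0.25 and 0.07 at timepoint 2. SRF (ENSG00000112658.8, chr6:43171269-43181506, forward strand) was at 21.2, 22.4 and 25.2 CPM in 2D and 22.8, 21.1 and 22.3 CPM in 3D at timepoint 1. At timepoint 2 SRF was at 8.45, 10.3 and 9.63 CPM in 2D and 7.19, 11.2 and 8.64 CPM in 3D. At timepoint 3 SRF was at 11.3, 13.9 and 12.6 CPM in 2D and 9.59, 11.4 and 9.28 CPM in 3D. Its log2 fold change between cultures was -0.07 (SE 0.17, adjusted p = 0.853) at timepoint 2 and -0.39 (SE 0.19, adjusted p = 0.270) at timepoint 3, and the same values of SRF show a larger difference between timepoints.

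How the genes moved with time after plating was compared within each culture, and the comparisons of timepoints 2 and 3 with timepoint 1 share the timepoint 1 libraries. In 2D, 6 members fell from timepoint 1 to 2 and 0 rose; of all tested genes 5.87% were called, 3.22% as lower. With the block 12 fell, against 13.7% of all genes called and 7.06% lower. From timepoint 1 to 3 in 2D, 5 fell and 0 rose, against 4.86% of all genes called and 2.36% lower. With the block 9 fell, against 10.5% called and 5.13% lower. In 3D, 4 rose and 7 fell from timepoint 1 to 2, against 15.1% of all genes called, 7.31% higher and 7.76% lower. With the block 11 rose and 9 fell, against 28.4%, 14.8% and 13.6%. From timepoint 1 to 3 in 3D, 1 rose and 9 fell, against 11.0% of all genes called, 4.07% higher and 6.95% lower. With the block 4 rose and 14 fell, against 23.9%, 11.4% and 12.5%. Between timepoints 2 and 3, 0 members passed in either culture in edgeR, DESeq2 or limma-voom; 3 in 2D and 5 in 3D had an unadjusted p under 0.05. Of all genes 0% were called there at an adjusted p under 0.05, and with the block 0.0377% in 2D and 0% in 3D. For the unadjusted p no share of all genes is given, and those counts are not read as a result about the members.

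With the header totals as library sizes and the block, the split from timepoint 1 to 2 in 3D was 8 higher and 12 lower. For the fits of this paragraph the share of all genes called is not given. The fall from timepoint 1 to 3 in 2D counted 3 genes without 2D timepoint 1 replicate 1 or replicate 3 and 1 without either tested 2D timepoint 3 library. In 3D the count from timepoint 1 to 2 was 7 without timepoint 1 replicate 1 or timepoint 2 replicate 1, and 5 without timepoint 1 replicate 2 or timepoint 2 replicate 3.

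**Figure D3:**
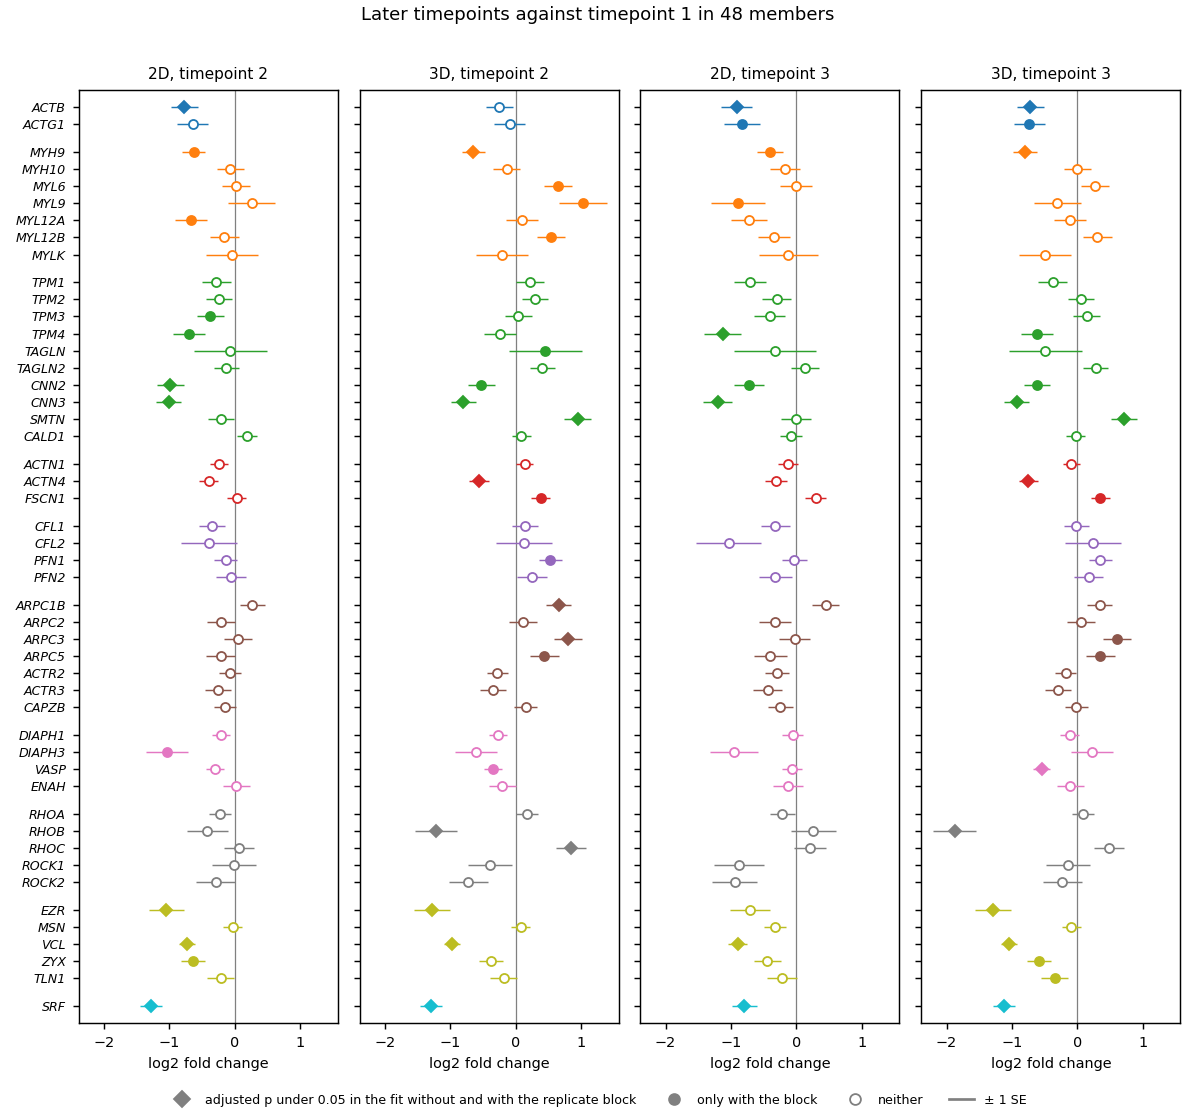
Log2 fold change against timepoint 1 (horizontal axis) for the tested genes other than MYH14, ordered and coloured by role, at timepoints 2 and 3 in 2D and in 3D; diamonds passed with and without the replicate block, filled circles only with it and open circles in neither fit, and bars are ± 1 SE from the fit over 17 libraries. Values and bars are from the fit without the block for every symbol. SRF, VCL and CNN3 lie left of 0 in all 4 comparisons, and SMTN lies right of 0 in 3D (0.95 and 0.71).

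SRF, VCL and CNN3 were called lower in all 4 comparisons with timepoint 1. SRF had 23 ± 2.06 CPM in 2D at timepoint 1 and 9.46 ± 0.941 CPM at timepoint 2, and 22.1 ± 0.869 and 9.02 ± 2.05 CPM in 3D (mean ± SD, n = 3). Every later SRF library, as printed above, was below every library of timepoint 1. Its log2 fold change was -1.28 (SE 0.17, adjusted p = 3.57e-04) and -0.80 (SE 0.19, adjusted p = 0.0249) in 2D, and -1.29 (SE 0.17, adjusted p = 1.45e-04) and -1.13 (SE 0.17, adjusted p = 4.04e-04) in 3D, at timepoints 2 and 3. VCL fell from libraries of 178.9 to 209.3 CPM at timepoint 1 to 89.3 to 127.3 CPM later, again without overlap. The values for VCL were -0.73 (SE 0.12, adjusted p = 0.00202) and -0.90 (SE 0.14, adjusted p = 0.00151) in 2D and -0.97 (SE 0.12, adjusted p = 1.04e-04) and -1.05 (SE 0.12, adjusted p = 5.07e-05) in 3D. CNN3, calponin 3, was at 42.6, 33.2 and 41.0 CPM in 2D and 43.5, 31.4 and 38.9 CPM in 3D at timepoint 1. At timepoint 2 CNN3 was at 20.4, 16.8 and 21.0 CPM in 2D and 27.8, 16.1 and 21.6 CPM in 3D. At timepoint 3 CNN3 was at 15.7, 16.2 and 17.5 CPM in 2D and 20.1, 18.3 and 21.4 CPM in 3D. Its log2 fold change was -1.01 (SE 0.19, adjusted p = 0.00501) and -1.21 (SE 0.22, adjusted p = 0.00542) in 2D and -0.80 (SE 0.19, adjusted p = 0.0124) and -0.93 (SE 0.19, adjusted p = 0.00520) in 3D, and no later library reached the lowest one of timepoint 1.

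Beta-actin fell with time in 3 of the 4 comparisons. The log2 fold change of ACTB was -0.77 (SE 0.21, adjusted p = 0.0369) and -0.92 (SE 0.24, adjusted p = 0.0339) in 2D, and -0.25 (SE 0.21, adjusted p = 0.453) and -0.72 (SE 0.21, adjusted p = 0.0335) in 3D, at timepoints 2 and 3; the 3D libraries of timepoint 2 overlapped those of timepoint 1. ACTG1 had -0.84 (SE 0.27, adjusted p = 0.0970 without and 0.0404 with the replicate block) in 2D and -0.74 (SE 0.24, adjusted p = 0.0580 without and 0.0262 with the replicate block) in 3D at timepoint 3. EZR, ezrin, was at 275, 224 and 469 CPM in 2D and 256, 227 and 472 CPM in 3D at timepoint 1. At timepoint 2 EZR was at 153, 146 and 172 CPM in 2D and 149.9, 117 and 128 CPM in 3D. At timepoint 3 EZR was at 128, 185 and 209.5 CPM in 2D and 127, 117 and 147 CPM in 3D. EZR fell from timepoint 1 to 2 in 2D, at -1.04 (SE 0.27, adjusted p = 0.0320), and in 3D, at -1.27 (SE 0.27, adjusted p = 0.00629), and at timepoint 3 passed in 3D, at -1.29 (SE 0.27, adjusted p = 0.00599), and had -0.71 (SE 0.31, adjusted p = 0.218) in 2D.

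CNN2, calponin 2, fell in 2D from timepoint 1 to 2, at -0.98 (SE 0.21, adjusted p = 0.00842), from 507, 351 and 617 to 246, 233 and 268 CPM. TPM4 fell in 2D from timepoint 1 to 3, at -1.13 (SE 0.28, adjusted p = 0.0296), from 1836, 1474 and 2046 CPM to 1117, 688 and 948 CPM. MYH9 and ACTN4 were called lower with time in 3D at both later timepoints, MYH9 at -0.65 (SE 0.18, adjusted p = 0.0256) and -0.80 (SE 0.18, adjusted p = 0.00885) and ACTN4 at -0.56 (SE 0.15, adjusted p = 0.0197) and -0.75 (SE 0.15, adjusted p = 0.00377). In 2D, MYH9 had -0.63 (SE 0.18, adjusted p = 0.0520 without and 0.00129 with the replicate block) and -0.41 (SE 0.20, adjusted p = 0.294 without and 0.0150 with the replicate block), and ACTN4 had -0.40 (SE 0.15, adjusted p = 0.142) and -0.32 (SE 0.17, adjusted p = 0.316). VASP fell in 3D by timepoint 3, at -0.55 (SE 0.13, adjusted p = 0.0142).

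The replicate block added calls with time for further genes, given here with the adjusted p without and with it. In 2D by timepoint 2 they were lower: MYL12A at -0.67 (0.137 and 0.0156), TPM3 at -0.37 (0.364 and 0.0399), TPM4 at -0.70 (0.111 and 0.00892), DIAPH3 at -1.04 (0.0725 and 0.0383) and ZYX at -0.64 (0.0502 and 0.0282). In 2D by timepoint 3, MYL9 was lower at -0.89 (0.255 and 0.0186) and CNN2 at -0.73 (0.0901 and 0.0270). In 3D by timepoint 2, 3 light chains of myosin were higher, MYL6 at 0.65 (0.0533 and 0.0119), MYL9 at 1.03 (0.0651 and 8.73e-04) and MYL12B at 0.54 (0.105 and 0.00620). TAGLN, FSCN1, PFN1 and ARPC5 were also higher there, at 0.46 (0.636 and 0.0390), 0.39 (0.0829 and 0.0229), 0.53 (0.0515 and 0.00592) and 0.44 (0.191 and 0.00797), and CNN2 and VASP lower, at -0.53 (0.0932 and 0.0318) and -0.34 (0.0934 and 0.0244). In 3D by timepoint 3, TPM4 was lower at -0.63 (0.116 and 0.0110), CNN2 at -0.62 (0.0635 and 0.0160), ZYX at -0.58 (0.0515 and 0.0290) and TLN1 at -0.35 (0.302 and 0.0273). FSCN1, ARPC3 and ARPC5 were higher there, at 0.35 (0.140 and 0.0467), 0.61 (0.0790 and 0.0128) and 0.35 (0.335 and 0.0273).

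RHOB fell with time in 3D, at -1.22 (SE 0.32, adjusted p = 0.0187) at timepoint 2 and -1.88 (SE 0.33, adjusted p = 0.00136) at timepoint 3, and its 3D libraries went from 6.84, 13.7 and 8.59 to 2.84, 3.33 and 1.77 CPM without overlap. In 2D, RHOB had -0.42 (SE 0.31, adjusted p = 0.549) and 0.26 (SE 0.35, adjusted p = 0.740). SMTN rose in 3D, at 0.95 (SE 0.20, adjusted p = 0.00597) and 0.71 (SE 0.20, adjusted p = 0.0325), while in 2D its values were -0.21 (SE 0.20, adjusted p = 0.660) and -0.01 (SE 0.22, adjusted p = 0.991). ARPC3 and ARPC1B, both Arp2/3 subunits, and RHOC rose in 3D from timepoint 1 to 2, at 0.79 (SE 0.21, adjusted p = 0.0215), 0.66 (SE 0.19, adjusted p = 0.0320) and 0.85 (SE 0.23, adjusted p = 0.0205). Whether the course over time differed between cultures was tested as an interaction, and 0 of the 49 genes passed in edgeR without the block; 7, 6 and 4 had an unadjusted p under 0.05 for timepoint 2 against 1, 3 against 1 and 3 against 2, where DESeq2 called 0, 1 and 0 and limma-voom 0. The share of all tested genes called in edgeR at an adjusted p under 0.05 was 0%, 0.183% and 0%. No share of all genes is given for the unadjusted p, so those counts are not read as a result about the members. With the block 2 interactions passed, ARPC5 for timepoint 2 against 1, at 0.64 (SE 0.14, adjusted p = 0.0468), and RHOB for timepoint 3 against 1, at -2.15 (SE 0.31, adjusted p = 0.00568), where 1.31% of all genes were called (0.775% as higher) and 1.56% (1.02% as lower). With the block and all 18 libraries 0 interactions passed, and with the block and header totals RHOB passed and ARPC5 did not.

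**Figure D4:**
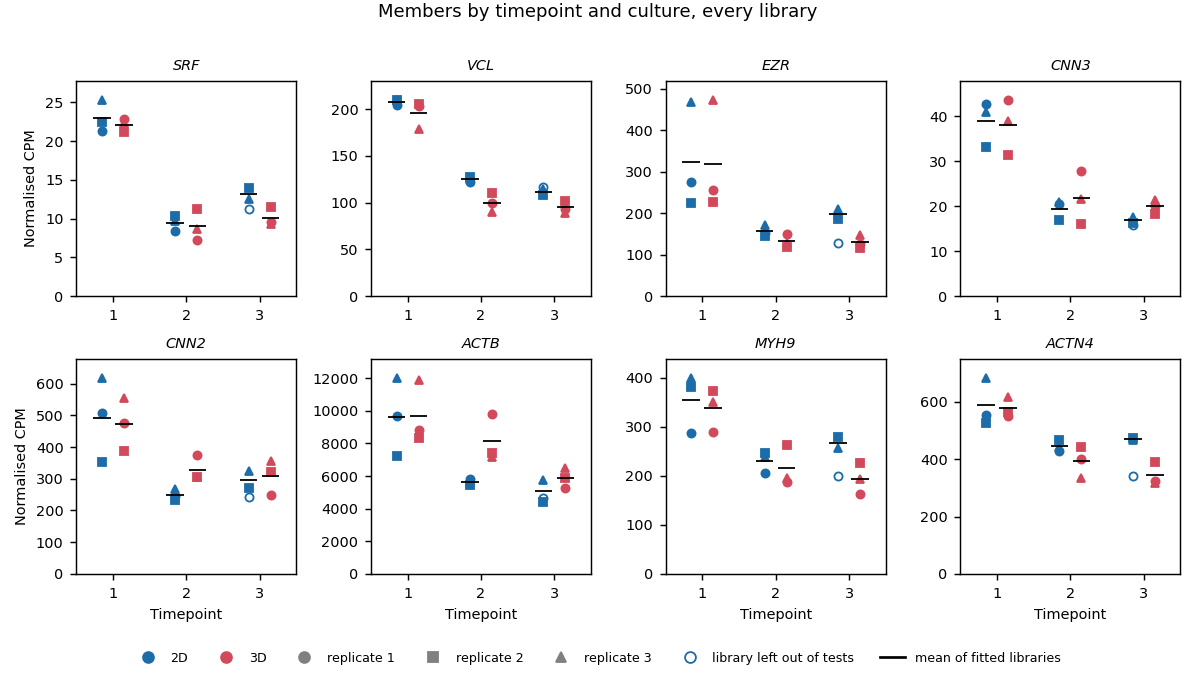
CPM of 8 genes (vertical axis, from 0, with its own scale in each panel) at timepoints 1, 2 and 3 (horizontal axis) in 2D (blue) and 3D (red); each point is a library, with a shape for each replicate number, the black mark is the mean of the tested libraries and the open point is the library left out of the tests. The SRF, VCL and CNN3 libraries of both cultures lie lower at timepoints 2 and 3 than every library of timepoint 1.

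Of the 8 genes with a CArG box in a promoter window, SRF was called lower in all 4 comparisons with timepoint 1, CNN2 in 1 and TPM4 in 1, SMTN was called higher in the 2 in 3D, and ACTG1, ACTN1, MYLK and ROCK2 in none, without the block. With the block SRF and CNN2 were called lower in all 4, TPM4 in 3 and ACTG1 in 2, SMTN was called higher in 2, and ACTN1, MYLK and ROCK2 were called in none. VCL and CNN3, which were called lower in all 4, held no box in the windows matched here.

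Transcript length moved with the difference between cultures at timepoint 2. Lengths are those of the longest annotated transcript. The median log2 fold change of all genes with a known length was 0.21 for the shortest class (53 to 2141 bases), 0.00 for the middle class and -0.22 for the longest (4135 bases and more), and for the members it was 0.54 over 11 genes, 0.40 over 19 and -0.09 over 19. At timepoint 3 the medians were 0.09, 0.02 and -0.05 for all genes and 0.27, 0.20 and 0.06 for the members. Ribosomal protein genes, which are short, held 13.6% to 18.8% of all counts in the 3D libraries of timepoint 2 and 9.09% to 11.3% in the 2D libraries. The mitochondrial share ran from 0.364% to 0.482% in the 3D libraries of timepoint 2, below the 2D libraries at 0.908% to 1.18%. At timepoint 3 it was 0.398% to 0.533% in the 3D libraries, again below the 2D libraries at 0.589% to 0.783%. The part of these shares in the differences between cultures was not tested. SMTN (5080 bases) and ARPC5 (7209 bases) are in the longest class and were higher in 3D, while PFN1, MYL6, MYL12A, MYL12B and ARPC3, at 1098 to 1564 bases, are in the shortest. With an offset for length and GC content added to the block, 14 of the 16 calls of timepoint 2 remained, without ARPC3 (0.50, adjusted p = 0.108) and VCL. At timepoint 3, 6 of the 8 remained, without ARPC5 (0.43, adjusted p = 0.125) and VASP (-0.14, adjusted p = 0.485). With the block and offset the sign of the difference between cultures turned for 11 members at timepoint 2 (MYH9, MYH10, CALD1, ACTN4, ACTR3, DIAPH1, VASP, ENAH, ROCK1, TLN1 and SRF) and for 9 at timepoint 3 (MYH9, CALD1, ARPC1B, ACTR2, ACTR3, DIAPH1, ZYX, TLN1 and SRF). These turns are against the fit with neither block nor offset, so the part of each is not separated. None of these members was called without the offset. TLN1 at timepoint 2 went from -0.02 with neither to 0.30 with both, and was called with both (adjusted p = 0.0366). The part of length in the calls without the offset was not tested further.

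**Figure D5:**
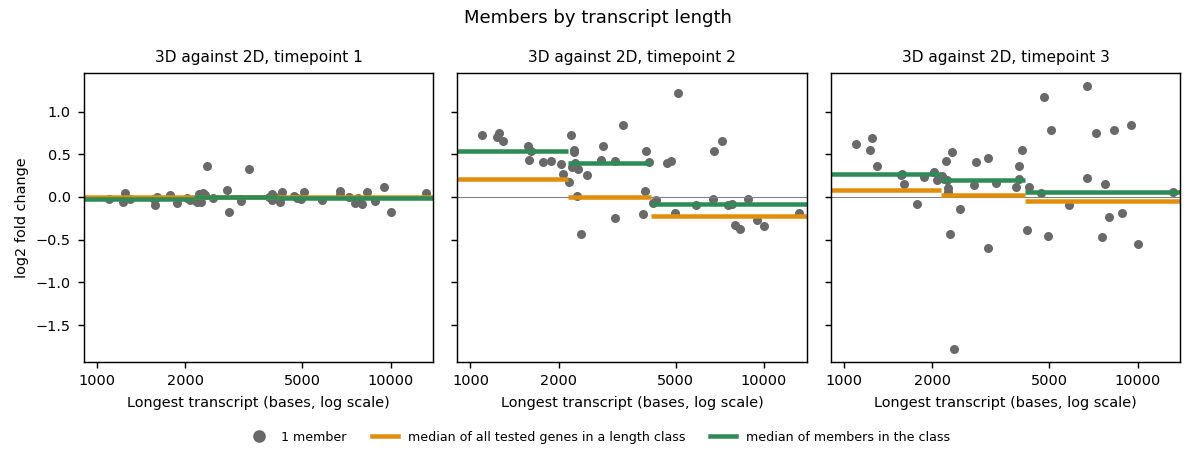
Log2 fold change of 3D against 2D (vertical axis) against the length of the longest transcript in bases (horizontal log axis) for the tested members other than MYH14 at timepoints 1, 2 and 3; orange lines give the medians of all tested genes in 3 length classes and green lines those of the members. At timepoint 2 the class medians of all genes go from 0.21 to -0.22 with length, and SMTN stands above them.

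Beyond the members, 83 other genes of actin assembly, its regulation and adhesion were counted by symbol, of which 82 were tested. At timepoint 1, 0 passed between cultures in either fit. At timepoint 2, 2 were higher in 3D and 2 lower, where 1.49% of all tested genes were called. With the block 11 were higher, against 9.00% of all genes, and 5 lower, against 6.86%. At timepoint 3, 0 were higher and 2 lower, where 1.50% of all genes were called, and with the block 2 were higher, against 4.45%, and 7 lower, against 5.30%. TMSB4X, thymosin beta-4, which holds actin monomers, was higher in 3D at timepoint 2, at 1.13 (adjusted p = 0.0460), and MARCKSL1, a membrane protein that binds filaments, at 0.95 (adjusted p = 0.0460). RHOV, a small GTPase, was lower in 3D at both later timepoints, at -1.64 (adjusted p = 0.0308) and -1.65 (adjusted p = 0.0355), with libraries of 2.88, 3.54 and 2.79 CPM in 2D and 0.629, 0.898 and 1.44 CPM in 3D at timepoint 2. RHOU, its relative, was lower at timepoint 2, at -1.15 (adjusted p = 0.0491), and ARHGEF2, an exchange factor that activates RHOA, at timepoint 3, at -0.62 (adjusted p = 0.0366). The median log2 fold change over these genes was 0.05 at timepoint 2 and -0.02 at timepoint 3.

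With time, 2 of these 82 genes rose and 10 fell in 2D by timepoint 2 and 1 rose and 8 fell by timepoint 3, where 5.87% and 4.86% of all genes were called in either direction. With the block these counts were 3 and 20, and 3 and 15, against 13.7% and 10.5% of all genes. In 3D, 9 rose and 15 fell by timepoint 2 and 2 rose and 18 fell by timepoint 3, against 15.1% and 11.0% of all genes. With the block 13 rose and 23 fell, and 6 rose and 23 fell, against 28.4% and 23.9%. RHOV fell in both cultures, at -2.45 and -2.32 in 2D and -3.89 and -3.76 in 3D. PDLIM5, a protein that binds alpha-actinin, had -1.14 and -1.35 in 2D and -1.31 and -1.43 in 3D, all past the threshold. ARHGEF2 fell by 0.90 in 2D by timepoint 2 and by 1.06 in 3D by timepoint 3 on the log2 scale. In 3D by timepoint 2, ARPC1A, an Arp2/3 subunit, rose by 0.93 and ACTA2, the actin of smooth muscle, by 0.80.

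The authors' deposited table of comparisons between cultures holds 48 of the 50 genes, without CNN1 and MYH14. In the authors' deposited table SMTN at timepoint 2 (1.15, adjusted p = 0.0130) and RHOB at timepoint 3 (-1.81, adjusted p = 0.0189) were the members with an adjusted p under 0.05, and none had one at timepoint 1. The same libraries underlie both sets of values.

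Replicate numbers marked the level of some genes in every group. Replicate 1 was the highest of the 3 libraries in all 6 groups for CFL2, PFN2 and ARPC5, replicate 2 for TLN1, and replicate 3 for MYL9, TAGLN and PFN1. The labels give these numbers a date and nothing else, so what the libraries of a number share was not tested.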

How the data were processed

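RNA was sequenced as 50 bp single-end reads. Per the submitters' processing notes, STAR 2.7.1a, HOMER, edgeR and limma were used with the hg38 build; no source used here gives the annotation release, the counting rule or the strand setting. The authors deposited raw read counts per gene, which exceed the header totals. They also deposited log2 CPM values, used here for no test, and tables of their comparisons with log2 fold changes, average log2 expression, the t and B statistics, which are scores, and p-values with adjusted p-values; these were used only where named. The deposited counts were fitted with edgeR 4.0.16 (R 4.3.3; filterByExpr, TMM, quasi-likelihood F test) over 6 group means and 17 libraries, with Benjamini-Hochberg adjustment over 18592 genes and a threshold of 0.05. A second fit had the replicate number as a block term, shared by all timepoints. The numbers pair the libraries because the labels give each a date shared by all groups. Same-numbered 2D and 3D libraries of a timepoint deviated together (mean correlation 0.583). Correlations between timepoints or between unlike numbers are not given. Simulated counts for 18592 genes had no replicate effect, and 67, 67 and 66 genes were changed 1.5-, 2- and 4-fold. The fit without the block recovered 1.49%, 20.9% and 81.8% of these at timepoint 2. At timepoint 3 it recovered 0%, 17.9% and 60.6%. The deposited libraries share deviations by replicate number and more genes are called in them with the block, so these shares are not the recovery in the data. Alternatives were DESeq2 1.42.0, limma-voom 3.58.1, other scalings, filters, library sets and an offset for length and GC content. Values in every library are given for listed genes and for genes called between cultures. The members and lists were chosen with earlier results of these data known. Promoter sequences are from RefSeq on GRCh38.p14, and lengths from GENCODE transcripts.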

Additional observations from a re-analysis of the deposited data

Results flagged for a closer look

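The change with time differed between cultures, by a test of the interaction with the replicate block, for 2 genes. For ARPC5 the difference between timepoint 2 and timepoint 1 was higher in 3D than in 2D by 0.64 on the log2 scale (SE 0.14, adjusted p = 0.0468 in edgeR's quasi-likelihood test), and without the block the adjusted p was 0.571. For RHOB the interaction for timepoint 3 against timepoint 1 was -2.15 (SE 0.31, adjusted p = 0.00568), and without the block the adjusted p was 0.112. The RHOB value rests on the 2 tested 2D libraries of timepoint 3, and the left-out 2D library was at 3.19 CPM beside 11.0 and 7.11 CPM in those. With the block and all 18 libraries 0 members passed either interaction test.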

How the results depend on the processing

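Counts are members called, in edgeR unless a tool is named, and the cause of a change was not tested. The share of all genes called is given above only for the fits without and with the block. Calls over all genes can change with the setting too, so a higher count is not read as a result about the members. For 3D against 2D at timepoint 2, 1 gene without the block became 2 with header totals as library sizes, 8 with no filter on low counts, 8 in DESeq2, 5 with only the groups compared in the fit, 3 with the offset for length and GC content, 16 with the replicate block, 19 with block and offset, and, chosen after seeing the data, 19 with block and all 18 libraries and 13 with block and header totals. For 3D against 2D at timepoint 3, 1 gene became 6, 4 in DESeq2, 0 with all 18 libraries, 2 with only the groups compared and 2 with the offset, where 6 is with no filter; it became 8 with the replicate block, 11 with block and offset, 3 with block and all 18 libraries and 8 with block and header totals. From timepoint 1 to 2 in 2D, 6 became 10 with no filter, 10 with the offset, 12 with the replicate block, 18 with block and offset, 11 with block and 18 libraries and 11 with block and header totals. From timepoint 1 to 3 in 2D, 5 became 10 with no filter, 2 with only the groups compared, 8 with the offset, 9 with the replicate block, 13 with block and offset, 13 with block and 18 libraries and 11 with block and header totals. From timepoint 1 to 2 in 3D, 11 became 4 with only the groups compared, 20 with the replicate block, 21 with block and offset, 21 with block and 18 libraries and 20 with block and header totals. From timepoint 1 to 3 in 3D, 10 became 18 with the replicate block, 19 with block and offset, 20 with block and 18 libraries and 18 with block and header totals. Between timepoints 2 and 3, 0 became 1 in 2D with no filter, 1 with block and offset and 1 with block and 18 libraries, and in 3D 2 with no filter, 1 with block and offset and 1 with block and header totals. For the interaction of timepoint 2 against 1, 0 became 2 with no filter, 1 with the replicate block and 2 with block and offset; for timepoint 3 against 1, 0 became 3 with no filter, 1 in DESeq2, 1 with the replicate block, 1 with block and offset and 1 with block and header totals.

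Leaving out each library in turn gave 0 to 1 members at timepoints 2 and 3 between cultures and 0 to 0 at timepoint 1; with time it gave 4 to 8 and 1 to 6 in 2D, 5 to 16 and 7 to 10 in 3D against timepoint 1, and 0 to 0 between timepoints 2 and 3 and for the interactions. With a 2D timepoint 3 library left out, that group keeps 1 tested library, assumed to vary like the other groups. Of the values of single named genes between cultures under these alternatives, 1555 stayed on the same side of the threshold, 137 of them with the other sign and none of those called; 113 passed it newly and 7 lost it, all with the same sign. Counts above the reads in the library limit what depth can be said to support.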
